A study of Mus musculus with 144 samples.

Results

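Fmo1, Fmo2, Fmo4 and Fmo5 encode flavin-containing monooxygenases and were followed in the RNA-Seq libraries of a time course in primary mouse hepatocytes. The 4 genes were taken by symbol from the 55359 genes counted in each library. No cut on a measured value was used, but earlier results of these data were known at that choice. The hepatocytes came from male mice of 28 days that were labelled either wild-type (WT, strain C57BL/6NCrl) or PkmΔDRE (strain Pkm-delta-DRE), and were prepared by liver perfusion with collagenase. PkmΔDRE mice are a mutant line in which an intronic dioxin response element of Pkm was removed with CRISPR-Cas9. Pkm encodes pyruvate kinase M. Cells of both labels received the vehicle DMSO or 10 nM TCDD, the dioxin 2,3,7,8-tetrachlorodibenzo-p-dioxin, and were harvested at 2, 4, 8 and 12 h and then daily from 24 to 120 h, with 4 libraries in each of the 36 groups. The labels do not say which libraries come from separate animals or isolations, so p-values measure the spread between these libraries, which may be technical.

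Flavin-containing monooxygenases are enzymes of the endoplasmic reticulum that hold FAD and use NADPH and oxygen to oxygenate soft nucleophiles, mostly the nitrogen and sulphur atoms of amines, thiols and thioethers. They handle many of the same drugs and dietary compounds as the cytochromes P450 but, unlike them, take electrons from NADPH directly, without a reductase. FMO1 is a broad oxygenase of foreign amines and sulphides, FMO2 is best known as the form of the lung, FMO4 is a little studied member, and FMO5 acts as a Baeyer-Villiger oxygenase of carbonyl compounds and is tied to lipid and glucose metabolism in mice. TCDD is a ligand of the aryl hydrocarbon receptor (AHR), which binds the core GCGTG of dioxin response elements and turns on genes such as Cyp1a1.

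The 250 bases upstream of 2 transcription starts are shown because Fmo2 and Fmo5 were the members called in the TCDD comparisons under both labels. Both come from RefSeq promoters on GRCm38.p6 and run 5′ to 3′ along the gene's own strand, chr1:162898759-162899008 on the minus strand for Fmo2 and chr3:97628769-97629018 on the plus strand for Fmo5.
Fmo2: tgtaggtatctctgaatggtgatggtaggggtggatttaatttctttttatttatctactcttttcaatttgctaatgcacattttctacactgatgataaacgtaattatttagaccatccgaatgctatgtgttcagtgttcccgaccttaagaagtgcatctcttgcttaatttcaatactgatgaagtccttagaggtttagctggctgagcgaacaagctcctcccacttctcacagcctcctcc
Fmo5: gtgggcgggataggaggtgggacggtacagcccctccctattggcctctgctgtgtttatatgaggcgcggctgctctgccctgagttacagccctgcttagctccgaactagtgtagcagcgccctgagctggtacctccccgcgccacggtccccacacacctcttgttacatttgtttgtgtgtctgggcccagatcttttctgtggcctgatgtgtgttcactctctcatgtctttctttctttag
The table held 4 starts of 3 members (Fmo2, Fmo4 and Fmo5), and Fmo1 is named only. No part is in capitals, because neither motif searched on both strands, GCGTG or the NRF2-type element TGACNNNGC, lies in the windows of 300 bases (250 before and 50 after a start) at these 4 starts. Of 32851 promoters of the same length, 32.4% held GCGTG and 12.4% held TGACNNNGC. These letters are a description of the window and say nothing of binding elsewhere.

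Depth on genes ran from 13588848 to 30719161 read pairs, with a median of 18011825, and levels are CPM, counts relative to library sizes that were scaled over all libraries. Libraries are named L and the number in their title. Some libraries went against their labels. Pkm, the check of the genotype label, was higher under TCDD at 24 h in the libraries labelled PkmΔDRE (428.5 ± 101.002 CPM, SD, n = 4, against 161 ± 96.6) and not in those labelled WT (82.97 ± 46.003 against 87.6 ± 72.9), so the genotype labels are used here only as labels. Cyp1a1 stood at 3285 CPM in vehicle library L21 (labelled WT, 48 h) and 1717 in vehicle library L31 (WT, 96 h), whereas TCDD libraries L64 (WT, 72 h) and L40 (WT, 2 h) held 29.2 and 1.15 CPM. The other libraries held 1.34 to 2.37 and 17.9 to 114.1 CPM in the first 2 groups, 3386 to 6764 in the third and 6.24 to 29.8 in the group of library L40, which was thus less far from its group. Vehicle libraries L80 (PkmΔDRE, 4 h) and L104 (PkmΔDRE, 96 h) went against their hours. Over 9573 genes, library L80 lay 21.03 times farther from the other libraries of its group than from the nearest group, vehicle of 96 h labelled WT, in mean squared log2 distance. For library L104 the ratio was 18.5, with TCDD of 4 h labelled PkmΔDRE nearest, and the next highest ratio in the series was 5.97. Most member values with TCDD at the hours of these libraries are also given without them, while the counts of list genes and the marker sums include them.

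Fmo5 made up most of the family's transcripts in every group. Scaled by exon length, Fmo5 held 59.6% to 93.4% of the summed CPM per kilobase of the 4 genes, Fmo1 held 2.90% to 25.3%, Fmo2 0% to 13.5% and Fmo4 0.493% to 11.1%. In group means Fmo5 ran from 11.4 to 110 CPM per kilobase, Fmo1 from 1.23 to 17.4, Fmo2 from 0 to 5.08 and Fmo4 from 0.243 to 2.25. Across libraries the CPM ranges were 40.97 to 746 for Fmo5 (ENSMUSG00000028088), 2.43 to 128.1 for Fmo1 (ENSMUSG00000040181), 0 to 38.6 for Fmo2 (ENSMUSG00000040170) and 0.198 to 15.9 for Fmo4 (ENSMUSG00000026692). Fmo2 had no count in 11 libraries, and each of the other 3 genes was counted in all of them. Reads of these related genes that map to several places were not counted. The share of Fmo5 was lowest in vehicle at 120 h, at 69.98% in libraries labelled WT and 59.6% in those labelled PkmΔDRE, the hour at which Fmo2 reached 10.1% and 13.5%.

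**Figure D1:**
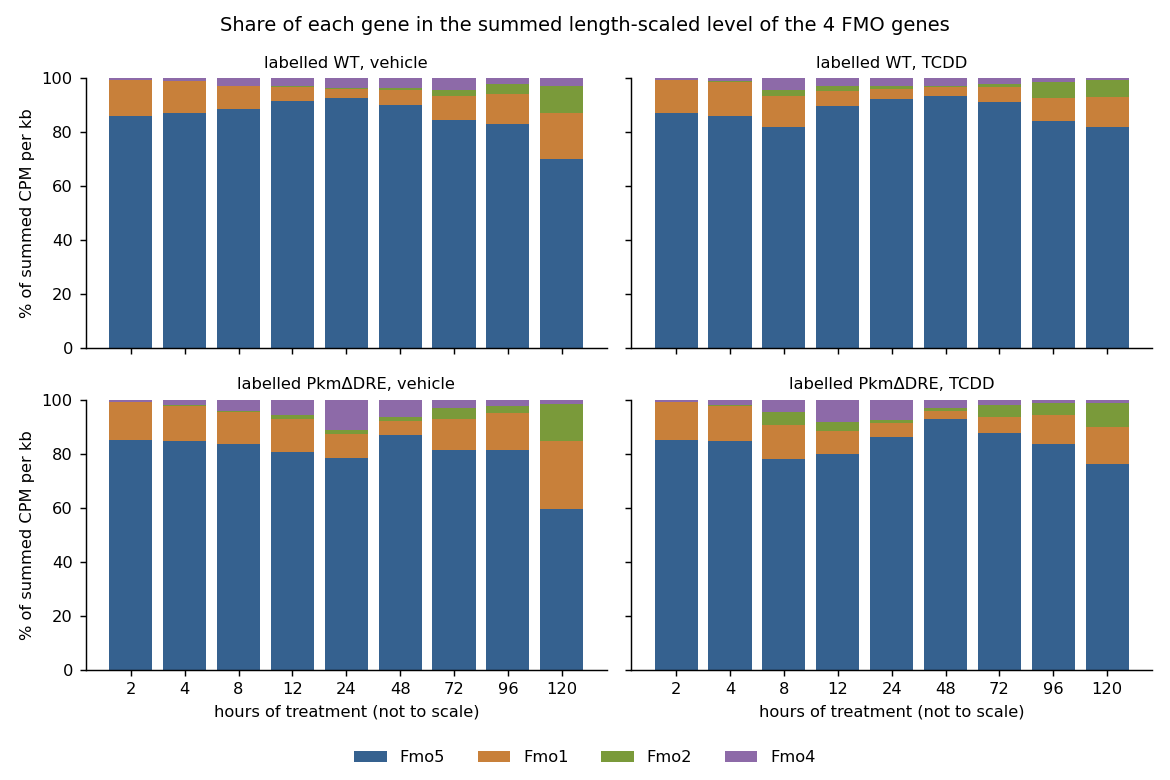
Share of each gene in the summed length-scaled level of the 4 FMO genes, as stacked bars in percent of the summed CPM per kilobase (group means of 4 libraries) against hours of treatment. Fmo5 holds 59.6% to 93.4% of every bar, and the Fmo2 part is widest in vehicle at 120 h.

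In vehicle alone, Fmo1 and Fmo5 fell within hours of culture and Fmo2 rose from a level at or near 0, while Fmo4 was called at 1 hour under each label. A gene was called at an adjusted p under 0.05 (edgeR quasi-likelihood test, Benjamini-Hochberg over all genes tested) and a fold change of at least 1.5. Against 2 h, 22 of 32 member tests were called under the label WT (8 up, 14 down) and 19 of 32 under PkmΔDRE (4 up, 15 down), and 22 and 21 were called without the libraries that went against a label. The share of all genes called was 2.89%, 45.8%, 53.8% and 57.9% at 4, 24, 72 and 120 h under WT and 3.86%, 33.2%, 42.3% and 49.4% under PkmΔDRE, so the members' calls came at hours when many genes were called. The median change of all genes tested reached 0.24 on the log2 scale at 120 h under PkmΔDRE. The hours of a label share its 2 h group, and in bulk libraries fewer cells of a type cannot be told apart from less RNA per cell.

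Under WT, Fmo1 was lowest at 24 h and stood higher again at later hours. In vehicle libraries labelled WT its CPM were 84.8, 110.6, 128.1 and 102.1 at 2 h, 21.004, 19.5, 21.04 and 27.1 at 8 h, and 13.9, 7.78, 5.13 and 5.07 at 24 h. At 120 h they were 25.4, 33.6, 20.4 and 26.4. The 2 h libraries lay above those of every later hour, beside 42.8% and 59.6% of all genes without overlap at 24 and 120 h, and the group mean was 7.501% of the 2 h mean at 24 h and 24.9% at 120 h. The log2 change against 2 h was -3.86 ± 0.30 (SE) at 24 h (adjusted p = 3.91e-12) and -2.17 ± 0.28 at 120 h (adjusted p = 7.03e-08). Between neighbouring hours under WT, 2 member tests of 32 were called, both of Fmo1. They were the fall from 4 to 8 h (-1.50 ± 0.28, adjusted p = 0.000175, beside 19% of all genes called) and the rise from 24 to 48 h (0.91 ± 0.28, adjusted p = 0.0328, beside 8.06%). The rise from 24 to 48 h was 0.76 (adjusted p = 0.119) without the 4 libraries that went against their treatment label, of which library L21 is in the 48 h vehicle group.

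Under the label PkmΔDRE, Fmo1 had its lowest group mean at 48 h. Its CPM were 124.4, 86.2, 112.7 and 114.5 at 2 h, 8.43, 16.2, 6.10 and 2.43 at 24 h, 14.5, 6.40, 5.38 and 4.78 at 48 h, and 35.6, 44.3, 37.0 and 35.1 at 120 h. The 2 h libraries again lay above those of all later hours, beside 25.9% and 52% of all genes without overlap at 24 and 120 h. The log2 change was -3.86 ± 0.47 at 24 h (adjusted p = 5.9e-07), -3.95 ± 0.47 at 48 h (adjusted p = 5.56e-07) and -1.73 ± 0.43 at 120 h (adjusted p = 0.00154). None of the 32 tests between neighbouring hours was called by edgeR under this label, with 9 at an unadjusted p under 0.05 (12.2% of all tests were) and 2 called by DESeq2.

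Fmo5 also fell and was low at 120 h in vehicle. Under WT its CPM were 631, 740, 487 and 596 at 2 h, 199, 207, 214 and 216 at 8 h, 308, 244, 106 and 130 at 24 h, and 69.5, 153, 40.97 and 126.7 at 120 h. Under PkmΔDRE they were 631, 417, 640 and 674 at 2 h, 74.9, 65.4, 60.6 and 58.6 at 24 h, and 141.3, 90.3, 41.6 and 49.6 at 120 h. At 24 h the libraries labelled PkmΔDRE sat within a narrow range and all lay below those labelled WT. Between the labels, 3.93% of all genes had no overlap at that hour. The log2 change against 2 h was -1.77 ± 0.48 at 24 h (adjusted p = 0.00259) and -2.83 ± 0.50 at 120 h (adjusted p = 1.22e-05) under WT. Under PkmΔDRE it was -3.33 ± 0.43 at 24 h (adjusted p = 1.6e-06) and -3.07 ± 0.43 at 120 h (adjusted p = 3.36e-06).

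Fmo2 rose through the culture. In vehicle libraries labelled WT it was at 0 in all 4 at 2 h, at 0.841, 0.480, 0.601 and 0.171 CPM at 24 h, at 4.89, 4.66, 5.88 and 2.92 at 72 h, and at 14.4, 13.2, 12.0 and 16.1 at 120 h. At 48 h Fmo2 ranged from 0.386 to 2.55 CPM and at 96 h from 6.48 to 7.97. None of its 8 tests between neighbouring hours was called under WT. Set against the limit that 0 counts over the 2 h group allows (3 counts, 0.0659 CPM), the 120 h mean was at least 212-fold higher, and the gene was called at each hour from 8 to 120 h (adjusted p = 2.53e-08 at 120 h). Under PkmΔDRE the CPM were 0, 0.388, 0.203 and 0 at 2 h and 8.91, 17.2, 33.8 and 12.6 at 120 h, a log2 change of 6.66 ± 1.28 (adjusted p = 0.00011), with calls from 48 to 120 h.

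Other cell types moved with the same hours. The summed CPM of 6 hepatocyte markers fell from 114666 to 154822 per library at 2 h to 3097 to 17041 at 120 h in vehicle labelled WT, and 5 of the 6 were called lower. The sum of 6 markers of stellate cells and fibroblasts went from 1.42 to 5.48 at 2 h to 18.2 to 170 at 120 h, with 4 of 6 called higher. Of its defining markers, Col1a1 was at 0 in 30 libraries of the series and Lrat in 35. The sum of 4 cholangiocyte markers was 34.2 to 132.5 at 2 h and 140 to 193 at 120 h (2 called higher and 1 lower), that of 4 endothelial markers 234 to 321 and 32.4 to 86.5 (3 called lower), and that of 5 macrophage markers 125.1 to 197 and 13.3 to 40.9 (3 called lower). Their part in the courses of Fmo1, Fmo2 and Fmo5 was not tested.

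Fmo4 was low throughout. In vehicle labelled WT its CPM were 2.23, 1.74, 2.94 and 2.696 at 2 h, 4.07, 3.90, 11.7 and 3.52 at 72 h, and 1.97, 5.10, 1.18 and 1.92 at 120 h. Library L27 stood well above the other 72 h libraries, and the lowest 72 h value, 3.52, was above the highest 2 h value, 2.94. Of all genes, 42.8% and 59.6% had no overlap with 2 h at 24 and 120 h, and the share at 72 h is not given. The change at 72 h was called (1.09 ± 0.46, adjusted p = 0.0425), beside 53.8% of all genes called. With no filter on low counts its adjusted p was 0.0585. Under PkmΔDRE, Fmo4 was at 2.91, 3.96, 4.25 and 2.51 CPM at 2 h and at 1.84, 2.11, 1.40 and 0.270 at 120 h, with no overlap, as for 52% of all genes. That fall of -1.46 ± 0.50 (adjusted p = 0.0151) had an adjusted p of 0.143 with the fraction of unassigned pairs as covariate.

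**Figure D2:**
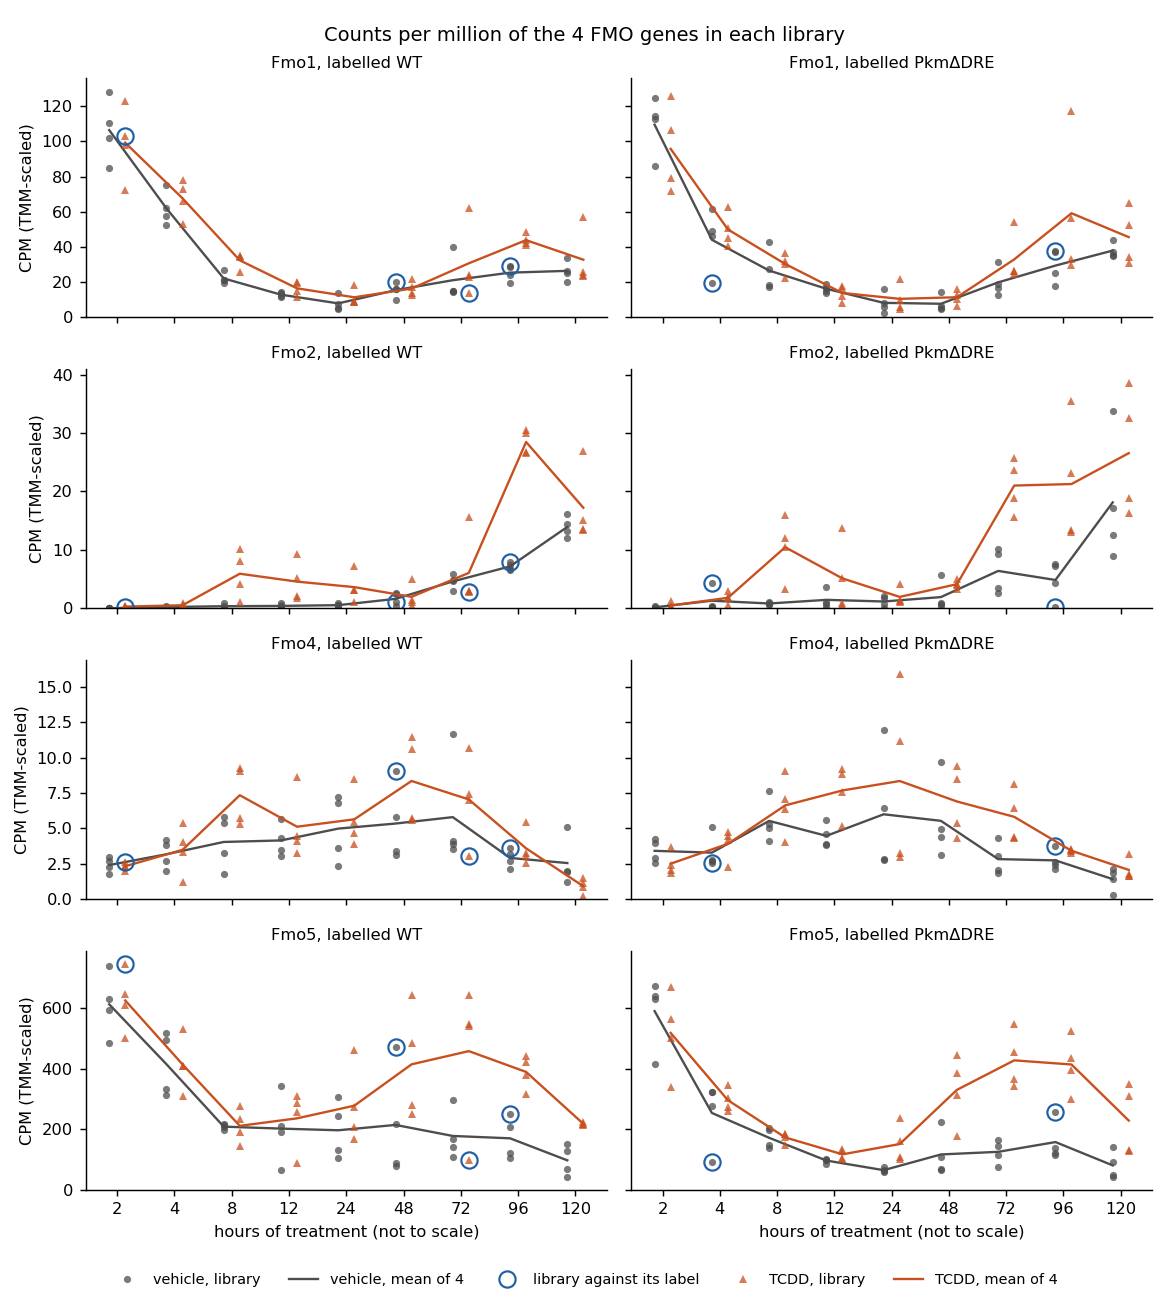
CPM of Fmo1, Fmo2, Fmo4 and Fmo5 (rows) in each library against hours of treatment, for libraries labelled WT (left) and PkmΔDRE (right), with points for libraries, lines for the mean of 4 and rings for the 6 libraries that went against a label. In vehicle, the means of Fmo1 and Fmo5 fall from 2 to 24 h and Fmo2 climbs from near 0. The TCDD points of Fmo5 at 72 h under PkmΔDRE, 343 to 549 CPM, lie above the vehicle points of 76.6 to 165. In that comparison 6.51% of all genes had no overlap.

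With TCDD, Fmo2 rose at 8 h under both labels and at 96 h under WT, Fmo5 rose at 96 h under WT and at 72 h under PkmΔDRE, and Fmo1 rose at 96 h under WT. Against time-matched vehicle, 4 of 34 member tests were called under WT and 2 of 35 under PkmΔDRE, all of them higher with TCDD. Of the fitted changes, 29 of the 34 and 31 of the 35 were positive, with the same 4 genes counted at each hour. The median log2 change of all genes tested lay between -0.027 and 0.041 under WT and between -0.077 and 0.0056 under PkmΔDRE. At an unadjusted p under 0.05 there were 11 and 10 member tests, beside 17.1% and 7.17% of all tests. Of all genes, the share called at 2, 4, 48 and 72 h under WT was 0%, 0%, 0.00763% and 0%. Under PkmΔDRE it was 0%, 0%, 0.024%, 0.404% and 0.633% at 2, 4, 12, 48 and 120 h, and the other hours are given beside their values. Fmo2 was too low to test at 2 h under both labels and at 4 h under WT. The TCDD comparisons of the 2 labels share no library, and those of different hours share none.

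At 8 h Fmo2 was at 0.837, 0, 0.105 and 0.424 CPM in vehicle and 1.12, 8.14, 4.23 and 10.1 with TCDD under WT. All TCDD libraries were above all vehicle libraries, and library L45, at 1.12 CPM, was close to the highest vehicle value. The log2 change was 4.08 ± 0.82 (adjusted p = 0.00243), beside 37.4% of all genes called and 41.3% without overlap at this hour and label. The macrophage sum was lower with TCDD, at 55.5 to 97.02 CPM against 110.5 to 164 (2 of 4 markers tested called lower), as was the hepatocyte sum, at 61046 to 67955 against 70479 to 83796 (3 of 6 called lower and 1 higher), and their part in the change was not tested. The stellate, cholangiocyte and endothelial sums overlapped. Under PkmΔDRE at 8 h the vehicle libraries held 0.756, 0.830, 0.501 and 1.14 CPM and the TCDD libraries 12.0, 3.33, 10.54 and 15.98. The groups did not overlap, and the change was 3.68 ± 0.49 (adjusted p = 0.0208), beside 0.106% of all genes called and 2.09% without overlap. All 5 marker sums overlapped at this hour under PkmΔDRE. This last call was kept in 2 of the 8 fits that each left out 1 library, with log2 changes from 3.37 to 3.97 and adjusted p up to 0.122. Its adjusted p was 0.296 in 1 fit of all libraries of the label and rounded to 1 with the fraction of unassigned pairs as covariate.

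At 12 and 24 h under WT, Fmo2 was not called although its groups lay apart. At 12 h vehicle libraries held 0.904, 0.135, 0.547 and 0 CPM against 2.07, 1.81, 9.22 and 5.12 with TCDD (3.55 ± 0.89, adjusted p = 0.998). At 24 h they held 0.841, 0.480, 0.601 and 0.171 against 3.12, 0.997, 7.22 and 3.13 (2.81 ± 0.62, adjusted p = 0.111). The groups did not overlap at either hour, as was so for 2.16% and 9.73% of all genes, and 0.0321% and 0.373% of all genes were called. DESeq2 gave adjusted p of 0.000704 and 0.000229 for these comparisons. Under PkmΔDRE the 2 groups overlapped at both hours, with 13.8 CPM in TCDD library L122 and 3.69 in vehicle library L86 at 12 h.

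At 96 h under WT, Fmo2 stood at 7.43, 6.76, 7.97 and 6.48 CPM in vehicle and at 26.8, 29.99, 30.5 and 26.7 with TCDD (7.16 ± 0.67 against 28.5 ± 2.04, SD, n = 4). The change of 2.05 ± 0.12 had the lowest adjusted p of the members in this comparison (2.99e-06), beside 15.1% of all genes called and 33.8% without overlap, and was called in each of the 8 fits with 1 library left out (2.10 ± 0.13, adjusted p = 5.93e-06, without library L31). With 1 fit of all libraries of the label, which shares 1 spread over the hours, its adjusted p was 0.128. The stellate and fibroblast sum overlapped between the groups, at 59.4 to 160 CPM in vehicle and 56.1 to 193 with TCDD. The cholangiocyte sum was lower with TCDD, at 130 to 148 against 259 to 301, as was the endothelial sum, at 41.2 to 59.8 against 66.1 to 75.5. The hepatocyte sum was 7180 to 13584 in vehicle and 13115 to 15217 with TCDD, with 2 of 6 markers called higher and 2 lower. The macrophage sum was 29.7 to 45.6 and 25.3 to 34.2, and both sums overlapped. The part of these cells in the changes of Fmo2, Fmo5 and Fmo1 at this hour was not tested. At 48, 72 and 120 h under WT the Fmo2 groups overlapped, with changes of 0.29 ± 0.78, 0.41 ± 0.58 and 0.30 ± 0.22. Without library L21 the change at 48 h was 0.13 ± 0.87, and without library L64 that at 72 h was 0.64 ± 0.59.

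Under PkmΔDRE, late Fmo2 values rested on the libraries kept. At 72 h vehicle libraries held 10.1, 9.35, 3.46 and 2.61 CPM and TCDD libraries 15.6, 23.7, 25.8 and 18.9. The groups did not overlap, as for 6.51% of all genes, and the change was 1.66 ± 0.43 (adjusted p = 0.116). At 96 h vehicle libraries held 4.25, 7.56, 7.29 and, in library L104, 0.236 CPM, against 13.1, 13.3, 23.2 and 35.4 with TCDD. The change was 2.13 ± 0.75 (adjusted p = 0.635) with library L104 and 1.70 ± 0.39 (adjusted p = 0.0465) without it, where it was called. At 4 h, leaving out library L80, which held 4.35 CPM beside 0.164 to 0.454 in the other vehicle libraries, moved the Fmo2 change from 0.51 ± 1.005 to 2.65 ± 0.76, with an adjusted p that rounded to 1 and 0.00817% of all genes called.

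The fitted changes of Fmo5 with TCDD lay between -0.12 and 0.24 at 2 to 12 h and between 0.57 and 1.74 at 24 to 120 h. At 96 h under WT, vehicle libraries held 120, 103.9, 250 and 207 CPM and TCDD libraries 316, 422, 381 and 441. The groups did not overlap, as for 33.8% of all genes. The highest vehicle value was that of library L31, whose Cyp1a1 went against its label. The change was 1.26 ± 0.25 (adjusted p = 0.00563), and 1.502 ± 0.21 (adjusted p = 0.00141, beside 14.7% of all genes) without library L31. With 1 fit of all libraries of the label the adjusted p was 0.211.

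The other late hours under WT gave no call. At 48 h vehicle held 472 CPM in library L21 and 216, 89.9 and 80.3 in the others, against 645, 487, 249 and 279 with TCDD. At 72 h vehicle held 141.5, 167, 296 and 107.9, against 542, 644, 549 and, in library L64, 100. Libraries L21 and L64, which Cyp1a1 set against their treatment labels, were thus the highest vehicle value and the lowest TCDD value of Fmo5 at their hours. The changes were 1.00 ± 0.56 and 1.37 ± 0.52 with them (adjusted p rounding to 1 for both) and 1.73 ± 0.47 (adjusted p = 0.82, 0.0519% of all genes called) and 1.71 ± 0.33 (adjusted p = 0.197, 0.0808%) without. At 120 h vehicle held 69.5, 153, 40.97 and 126.7 and TCDD 216, 219, 214 and 224, with no overlap (1.16 ± 0.35, adjusted p = 0.15, beside 1.46% of all genes called and 10.8% without overlap). The 4 TCDD libraries of that hour were nearly equal, whereas the vehicle libraries were spread.

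Under PkmΔDRE the rise of Fmo5 was called at 72 h. Vehicle libraries held 76.6, 115.2, 165 and 146 CPM and TCDD libraries 343, 366, 549 and 455. The groups lay far apart, and 6.51% of all genes had no overlap in this comparison. The change of 1.74 ± 0.26 (adjusted p = 0.00573, beside 1.13% of all genes called, 0.808% higher) was called in all 8 fits with 1 library left out and under the 5 other settings tried. The cholangiocyte sum was lower with TCDD at this hour, at 82.4 to 139.8 CPM against 198 to 292 (1 of 4 markers called lower), and its part in the change was not tested. The other 4 marker sums overlapped. At 24 h vehicle held 74.9, 65.4, 60.6 and 58.6 and TCDD 237, 107.01, 161 and 100, with no overlap (1.12 ± 0.31, adjusted p rounding to 1, beside 0.016% of all genes called and 1.33% without overlap). At 48 h the groups overlapped, since vehicle library L93 held 225 CPM and TCDD library L132 held 178 (1.40 ± 0.45, adjusted p = 0.401).

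At 96 h under PkmΔDRE, Fmo5 was at 114.04, 121.9, 136.7 and, in library L104, 259 CPM in vehicle, and at 436, 526, 397 and 299 with TCDD. The groups did not overlap even with library L104, as for 5.76% of all genes. The change was 1.32 ± 0.35 (adjusted p = 0.46) with it and 1.69 ± 0.20 (adjusted p = 0.00129) without it, where it was called. Over all genes, 11 were called at this hour with library L104 and 321 without it, 0.0793% and 2.25% of those tested. At 120 h vehicle held 141.3, 90.3, 41.6 and 49.6 and TCDD 349, 309, 127.3 and 130, and the groups overlapped (1.497 ± 0.46, adjusted p = 0.309). In each group the first 2 libraries listed were above the other 2, and no paired test was run.

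**Figure D3:**
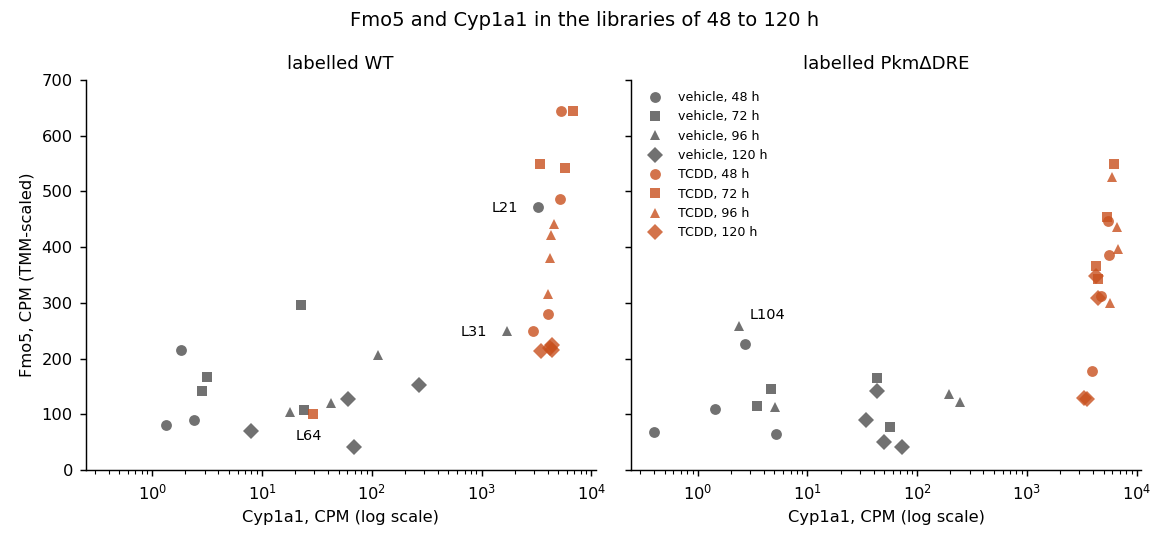
Fmo5 CPM against Cyp1a1 CPM (log scale) in the single libraries of 48 to 120 h, labelled WT (left) and PkmΔDRE (right), with symbols for hours and colours for the treatment label. Vehicle library L21 lies among TCDD libraries at 3285 CPM of Cyp1a1 and 472 of Fmo5, TCDD library L64 lies among vehicle libraries at 29.2 and 100, and library L104 has the highest Fmo5 of the vehicle libraries labelled PkmΔDRE.

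Fmo1 was called with TCDD at 1 hour. At 96 h under WT it was at 24.4, 19.4, 29.4 and 28.6 CPM in vehicle and 41.4, 48.5, 42.01 and 43.7 with TCDD. All 4 TCDD libraries lay above the vehicle libraries, and 33.8% of all genes had no overlap in this comparison. The change of 0.85 ± 0.12 was called (adjusted p = 0.000793), as it was without library L31 (0.92 ± 0.13, adjusted p = 0.000992). With 1 fit of all libraries of the label the adjusted p was 0.235. Thus 3 of the 4 members were called at 96 h under WT, where 10.1% of all genes were called higher. At 8 h under WT the TCDD libraries held 25.5, 34.6, 34.6 and 34.97 against 21.004, 19.5, 21.04 and 27.1, and the change of 0.52 ± 0.18 passed the adjusted p (0.0311) and not the fold threshold. Under PkmΔDRE no Fmo1 comparison was called, and at 96 h vehicle held 25.3, 17.9, 37.0 and 37.6 against 29.7, 33.2, 117.1 and 56.7 (0.95 ± 0.46, adjusted p = 0.699). Without library L104, which held 37.6 CPM, that change was 1.11 ± 0.44 (adjusted p = 0.304).

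Fmo4 was not called in any TCDD comparison by edgeR, and 2 of its 9 tests under each label had an unadjusted p under 0.05. At 120 h under WT it was at 1.97, 5.10, 1.18 and 1.92 CPM in vehicle and 1.103, 0.824, 1.47 and 0.198 with TCDD (-1.51 ± 0.60, adjusted p = 0.252). At 72 h under PkmΔDRE it was at 1.82, 4.32, 3.07 and 2.08 against 4.30, 4.40, 8.11 and 6.43 (1.00 ± 0.37, adjusted p = 0.328). The groups overlapped in both. DESeq2 called no Fmo4 comparison with TCDD either.

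**Figure D4:**
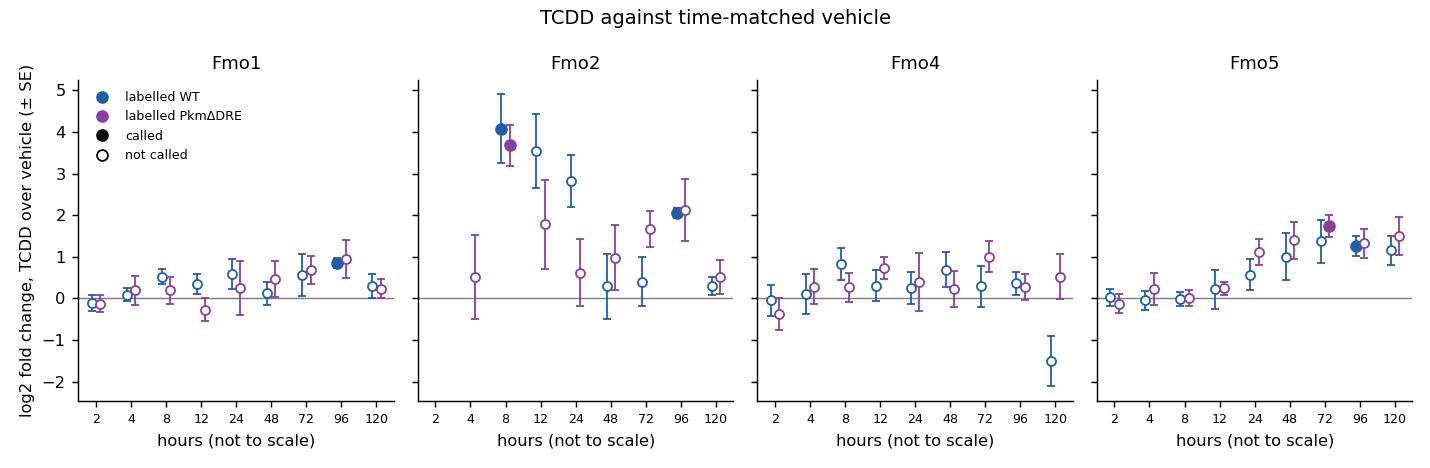
Log2 fold change of TCDD over time-matched vehicle with its SE against hours for Fmo1, Fmo2, Fmo4 and Fmo5, filled where called. Fmo2 is called at 8 h under both labels and at 96 h under WT, Fmo5 at 96 h under WT and 72 h under PkmΔDRE, and Fmo1 at 96 h under WT.

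The TCDD effect averaged over the 9 hours, from 1 fit of all libraries, called Fmo2 under both labels and Fmo5 under PkmΔDRE. Fmo2 was higher by 2.21 on the log2 scale under WT (adjusted p = 1.26e-06; the fit gives no SE because the 2 h vehicle group is at 0) and by 1.49 ± 0.27 under PkmΔDRE (adjusted p = 4.34e-05). Averaged over the 8 hours without 2 h, the Fmo2 value under WT was 1.79 ± 0.30 (adjusted p = 2.87e-06). Fmo5 was higher by 0.81 ± 0.14 under PkmΔDRE (adjusted p = 9.42e-06) and by 0.57 ± 0.14 under WT (adjusted p = 0.00166), where the change fell just short of the fold threshold. It passed that threshold in each of 8 other settings (0.59 to 1.05), among them the fit without the 4 libraries set against their treatment label (0.70, adjusted p = 3.29e-05). Fmo1 changed by 0.32 ± 0.13 (adjusted p = 0.0435) and 0.27 ± 0.13 (adjusted p = 0.239), and Fmo4 by 0.10 ± 0.15 and 0.35 ± 0.15, none of them called. Without the same 4 libraries Fmo2 was higher by 2.22 under WT (adjusted p = 3.49e-06) and Fmo1 by 0.37 ± 0.13 (adjusted p = 0.0232), which missed the fold threshold. Without libraries L80 and L104 Fmo2 was higher by 1.66 ± 0.27 (adjusted p = 2.29e-06) and Fmo5 by 0.81 ± 0.13 (adjusted p = 3.57e-06) under PkmΔDRE. Of all genes, 8.03% were called under WT and 2.7% under PkmΔDRE. Over the 5 hours from 24 h on, Fmo5 was higher by 1.05 ± 0.19 under WT and 1.45 ± 0.19 under PkmΔDRE, and Fmo2 by 1.16 and 1.22.

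The response to TCDD was not shown to differ between the labels for any member. None of 35 interaction tests was called by edgeR or DESeq2, 1 had an unadjusted p under 0.05 (6.49% of all tests did), and the lowest adjusted p was 0.497. Of all genes, 0.00715% were called at 48 h and 0.00695% at 72 h, and 0% at the other hours. That 1 test was of Fmo4 at 120 h, where the response under PkmΔDRE exceeded that under WT by 2.03 ± 0.85 (adjusted p rounding to 1). For Fmo2 at 24 h the difference was -2.16 ± 1.03 (adjusted p = 0.795). Averaged over the hours, the differences were -0.05 ± 0.18 for Fmo1, -0.72 for Fmo2, 0.25 ± 0.21 for Fmo4 and 0.23 ± 0.19 for Fmo5, with 0.45% of all genes called in this contrast and no member among them.

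In vehicle alone, the fitted Fmo5 change of PkmΔDRE against WT was below 0 at each of the 9 hours, and no member was called at any of them by edgeR. At 96 h it was -0.05 with all libraries and 0.19 ± 0.41 without library L31. At 12 h its CPM were 99.9, 85.7, 98.8 and 102.3 under PkmΔDRE and 213, 342, 65.1 and 190 under WT, where library L15 held the lowest value of all. The change was -1.04 ± 0.37 (adjusted p = 0.13), beside 3.68% of all genes called, and it was -1.35 (adjusted p = 0.0201) without library L15. DESeq2 also called it (-1.05, adjusted p = 0.0413). At 24 h the ranges were 58.6 to 74.9 and 106 to 308, with no overlap, as for 3.93% of all genes, and the change was -1.53 ± 0.34 (adjusted p = 0.981). These comparisons use the vehicle libraries that also serve the TCDD comparisons. Of 34 member tests, 4 had an unadjusted p under 0.05, beside 7.84% of all tests. At 8 h 0.0576% of all genes were called, and 0% at the hours other than 8 and 12 h. Fmo1 at 120 h was the other case without overlap, at 35.1 to 44.3 CPM under PkmΔDRE and 20.4 to 33.6 under WT, as for 2.19% of all genes (0.55 ± 0.20, adjusted p rounding to 1).

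Genes that supply or complement the FMO reaction were followed in 6 lists of 30 genes, and 28 of them could be tested in the averaged contrast. The other 2 were the family rows Fmo6 and Fmo9, at 0 in most libraries. Of 250 tests against time-matched vehicle under WT, 13 were called higher and 7 lower (median log2 change 0.05), and of 249 under PkmΔDRE, 4 were called, all higher (median 0.02). Of the tests of all genes over the 9 hours, 5.98% and 0.281% were called. All 4 calls under PkmΔDRE were of Xdh, xanthine dehydrogenase, or Aox3, an aldehyde oxidase, both molybdenum enzymes of heterocycles that also hold FAD. Under WT these 2 genes were called most often, but most calls were spread over other genes. Xdh was higher under WT at 12, 24, 96 and 120 h (1.26, 1.64, 1.84 and 1.92 on the log2 scale) and under PkmΔDRE at 48, 72 and 120 h (1.99, 2.29 and 1.91). Aox3 was higher under WT at 8, 96 and 120 h (1.27, 2.14 and 2.16) and under PkmΔDRE at 72 h (2.45). In the averaged contrast these 2 genes were called under both labels, Xdh at 1.08 ± 0.09 and 1.28 ± 0.09 and Aox3 at 0.96 ± 0.18 and 0.69 ± 0.18.

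Of the 4 genes of microsomal electron transfer, Por, the reductase that feeds cytochromes P450, was called at 120 h under WT (1.52 ± 0.13) and on average under PkmΔDRE (0.63 ± 0.14). Cyb5b (0.72) and Cyb5r3 (-0.67) were called at 8 h under WT. Of the 5 NADPH-producing enzymes, Idh1 (0.93) and Me1 (0.72) were called at 8 h and G6pdx (-0.78) at 96 h under WT. Of the 4 genes of FAD supply, only the riboflavin transporter Slc52a3 was called (-0.88, WT, 96 h). Among 6 liver transcription factors, Foxa2 (-0.71, 8 h), Nr1h4 (0.72, 96 h) and Onecut1 (-1.12, 120 h) were called under WT, and Onecut1 was called lower on average under both labels (-0.68 ± 0.23 and -0.71 ± 0.23). Maoa (0.67), Smox (-0.80) and Paox (-0.73), oxidases of amines and polyamines, were called at 8 h under WT. At that hour 37.4% of all genes were called under WT, 23.8% higher and the rest lower.

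Over time in vehicle, most of the other oxidases fell. At 120 h under WT, 7 of the 9 other oxidases were called lower and 1 higher, and the same counts held under PkmΔDRE. Kmo, kynurenine 3-monooxygenase and itself a flavoprotein, fell by 5.15 and 5.36 on the log2 scale under the 2 labels, and Aox3 fell by 5.09 and 4.69. Maoa, which oxidises monoamines in mitochondria, rose by 5.37 and 5.80. Of the 4 genes of microsomal electron transfer 3 were called lower under each label, among them Por (-3.86 and -3.92). The riboflavin transporter Slc52a2 rose (2.20 and 1.88). Of the 6 transcription factors, 3 were called lower and 1 higher under WT, and 3 lower and 2 higher under PkmΔDRE. Hnf4a (-1.71 and -1.86), Cebpa (-2.33 and -2.27) and Nr1h4 (-1.22 and -1.10) fell, and Foxa2 rose (1.42 and 0.97). Onecut1 was called higher under PkmΔDRE (2.16) and not under WT (1.39, adjusted p = 0.0714).

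**Figure D5:**
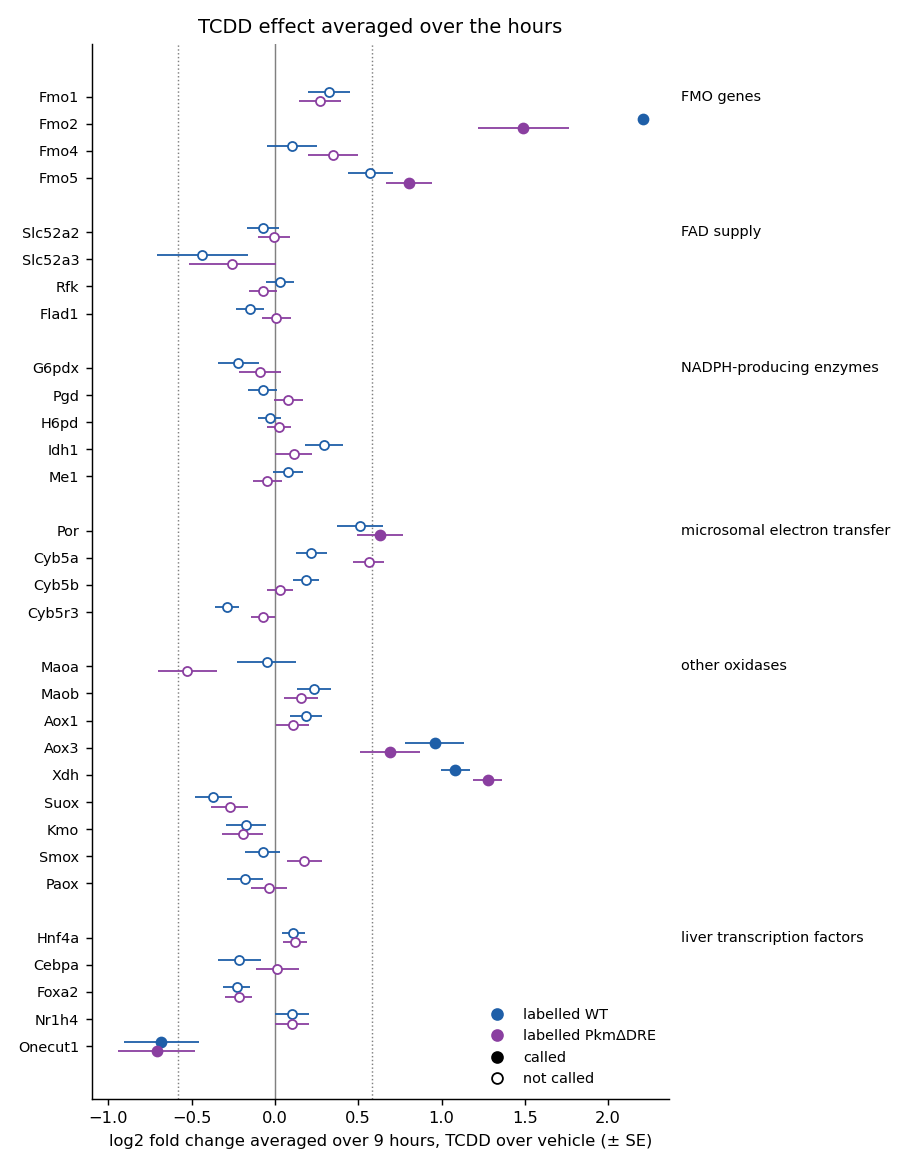
Log2 fold change of TCDD over vehicle averaged over 9 hours with its SE for the FMO genes and genes from 5 lists, filled where called, with dotted lines at a fold change of 1.5 and no SE for Fmo2 under WT. Fmo2, Aox3 and Xdh are called higher and Onecut1 lower under both labels, while Fmo5 and Por are called under PkmΔDRE and not under WT.

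Over the 36 group means of log2(CPM + 1), Pearson's r was 0.67 for Fmo1 and Fmo5, -0.54 for Fmo1 and Fmo4, and between -0.19 and -0.02 for the other 4 pairs. The genes most like each member, among 11360 with a mean of at least 1 CPM, were Lpin1 (0.97), Rnf125 (0.95) and Abat (0.95) for Fmo1, and Hsd17b2 (0.90), Sar1b (0.89) and Cd1d1 (0.88) for Fmo5. For Fmo2 they included Amot and Rbbp9 (0.91 each), and for Fmo4 they were Ehd1, Cstb (0.81 each) and H2-T22 (0.80). These values describe 36 points that share the hours, the labels and the libraries.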

How the data were processed

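RNA was measured by paired-end RNA-Seq in 144 libraries. The authors trimmed reads with Trimmomatic 0.39, checked them with FastQC (0.11.3 in the submitters' processing notes, another version in the study's methods), aligned them to GRCm39 with STAR 2.7 and deposited STAR's read counts per gene for uniquely mapped pairs. The unstranded counts were used, so reads of overlapping antisense genes cannot be told apart. The stranded columns were not used. Rows that name no gene stayed out of library sizes and tests. They held 16.8% to 48.0% of all read pairs, unmapped and multiply mapped pairs included.

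From these counts, edgeR 4.0.16 (R 4.3.3) was run with TMM scaling, filterByExpr (minimum count 10, total 15) and robust quasi-likelihood tests, with Benjamini-Hochberg adjustment over all genes tested. Each TCDD comparison used the 8 libraries of an hour and label, the interaction the 16 of an hour, vehicle time the 36 of a label, and the average all 144. Levels are CPM, and CPM per kilobase divides them by the union of exons. The fits were also run on simulated independent counts, a check of the code only. These counts held no mislabelled libraries and no shared preparations. Alternatives were DESeq2 1.42.0, RLE scaling, no filter, no fold threshold, a covariate, other sets of libraries and leaving out each library. Averages over fewer hours, the alternatives of neighbouring hours and fits without libraries L80 and L104 were chosen after seeing the data.

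The members, the gene lists and the markers were chosen with earlier results of these data known. All 4 members were named throughout, list genes when called with TCDD or as the extremes of their list, and likeness genes as the 3 highest correlations. Values of 1 likeness gene and 1 list gene are not reported here. More deeply sequenced libraries carry less counting error, which matters most for Fmo2 and Fmo4, counted 0 to 1537 and 5 to 277 times per library. Promoter sequences are from RefSeq on GRCm38.p6, another build than that of the counts.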

Additional observations from a re-analysis of the deposited data

Results flagged for a closer look

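Each of the 4 genes was looked at in each of the 36 groups of 4 libraries, except Fmo2 where every library of a group was at 0. In 16 pairs of a gene and a group, 11.2% of those looked at, 1 library stood apart from the other 3, and these pairs lay in 12 groups. Chance gives this in about 1 in 20 pairs if values are independent and normally distributed. CPM need not be, and pairs of different genes share libraries, so no excess is read from this share. For Fmo1 the libraries (CPM, with the range of the other 3) were L135 at 54.5 (24.8 to 26.3, PkmΔDRE, TCDD, 72 h), L93 at 14.5 (4.78 to 6.40, PkmΔDRE, vehicle, 48 h) and L45 at 25.5 (34.6 to 34.97, WT, TCDD, 8 h). Fmo1 also stood apart in library L53 at 18.4 (8.82 to 9.54, WT, TCDD, 24 h), library L71 at 57.3 (23.8 to 25.8, WT, TCDD, 120 h) and library L27 at 39.9 (14.2 to 15.3, WT, vehicle, 72 h).

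For Fmo2 they were library L127 at 4.15 (1.04 to 1.35, PkmΔDRE, TCDD, 24 h), library L80 at 4.35 (0.164 to 0.454, PkmΔDRE, vehicle, 4 h) and library L94 at 5.76 (0.309 to 0.844, PkmΔDRE, vehicle, 48 h). Under WT with TCDD they were library L61 at 15.5 (2.79 to 2.98, 72 h) and library L71 at 26.9 (13.4 to 15.1, 120 h). Library 71 thus stood apart for both Fmo1 and Fmo2.

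For Fmo4 they were library L141 at 3.18 (1.64 to 1.76, PkmΔDRE, TCDD, 120 h), library L79 at 5.09 (2.55 to 2.79, PkmΔDRE, vehicle, 4 h) and library L27 at 11.7 (3.52 to 4.07, WT, vehicle, 72 h), which stood apart for Fmo1 as well. For Fmo5 they were library L74 at 417 (631 to 674, PkmΔDRE, vehicle, 2 h) and library L104 at 259 (114.04 to 136.7, PkmΔDRE, vehicle, 96 h).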

How the results depend on the processing

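No paired analysis was possible because the labels give no replicate number. Of the single member values under other settings, 477 kept their direction and side of the threshold, 25 gained a call, 17 lost one and 1 reversed: Fmo4 averaged over the 5 hours from 24 h under WT (-0.000339). Member calls with TCDD under WT (4) were 2 in 1 fit per label and 7 with DESeq2, and 4 to 5 with 1 library left out. Under PkmΔDRE (2) they were 4 with DESeq2 and 1 to 4 with 1 library left out. Calls in the averaged effect (3) were 5 with no fold threshold. Calls between neighbouring hours were, under WT (2), 4 with only the 8 libraries compared and 1 without libraries L21, L31, L40 and L64, and under PkmΔDRE (0), 2 with DESeq2 and 1 with only 8 libraries. Label differences in vehicle (0) were 1 with DESeq2 and 0 to 1 with 1 library left out, and interactions stayed at 0 in all such fits. List calls with TCDD under WT (20) were 34 with no fold threshold, 31 with the covariate and 18 to 24 with 1 library left out. Under PkmΔDRE (4) they were 8 in 1 fit per label, 13 with DESeq2, 10 with no filter, 9 with the covariate and 3 to 8 with 1 library left out. The cause was not tested. Low counts of Fmo2 and Fmo4 limit what their comparisons could show.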
